A study of Mus musculus with 6 samples.

Results

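The gene Trp53, which encodes the tumour suppressor p53, was described together with a list of its target and regulator genes in mouse leukaemic blasts. The list held 30 genes, named by symbol and taken by their Entrez gene IDs from the 24454 gene IDs in the table. All 30 had a row there, and 29 passed the filter on low values that left 12642 genes for testing. The remaining one, Eda2r, a receptor of the tumour necrosis factor family, was at or near 0 in every library.

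p53 is a transcription factor that is held at a low level in unstressed cells, because MDM2, the product of one of its own target genes, marks it for degradation. After DNA damage or oncogene activation the protein is stabilised and raises the transcription of genes that stop the cell cycle, repair DNA or start cell death. The amount of p53 protein is set mainly after transcription, so the level of Trp53 mRNA is not a measure of p53 activity. Leukaemias started in mice by MLL-AF9, a fusion of the genes for MLL and AF9, are used as a model of acute myeloid leukaemia.

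The study compared Stat3β TG blasts, from C57BL/6 fetal liver cells that carried Mx1-Cre and a Stat3β transgene, with WT blasts from wild-type littermates, 3 libraries of each. Stat3β is a splice form of STAT3, a transcription factor that cytokines activate, with a shortened end, and Mx1-Cre is driven by an interferon-responsive promoter that the double-stranded RNA mimic poly(I:C) turns on. What both groups shared was the MLL-AF9 retrovirus, transplantation into NSG mice (a strain without mature lymphocytes), poly(I:C) at week 4 after transplantation, and sorting of blasts from bone marrow at week 6. The labels name no Cre in the WT cells, give no ages, and do not say whether replicates came from separate donors. Every p thus measures the spread between these samples, and how much of that spread is technical is not known.

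The libraries held 21809788 to 51934498 reads in genes, with Stat3β TG 1 and Stat3β TG 3 the deepest. Markers of myeloid blasts such as Hoxa9 and Meis1 were present in every library, with all 10 listed markers tested. The WT libraries stood apart from each other. In a principal component analysis the leading axis took up 47.4% of the variance. On it the Stat3β TG libraries lay at -31.4, -16.3 and -28.2, WT 1 lay at -38.3, and WT 2 and WT 3 lay at 64.4 and 49.7. The second axis, with 19.9% of the variance, parted WT 2 (-40.7) from WT 3 (48.2). On that axis WT 1 lay at 0.04 and the Stat3β TG libraries at 5.4, 3.1 and -15.9. Xist, the RNA of the inactive X chromosome, had 19.1 to 71.6 normalized counts in the Stat3β TG libraries, against 42699 in WT 1, 835 in WT 2 and 45196 in WT 3. Y-linked genes were high in the Stat3β TG libraries and WT 2, so sex and genotype cannot be fully told apart. WT 2 thus differed from WT 1 and WT 3 in sex-linked genes, so the spread within WT is not technical alone. Summed over 12 neutrophil markers, the level was 389440 to 573890 normalized counts in Stat3β TG, against 377801, 109136 and 313682 in WT 1, 2 and 3. The sums did not overlap, but WT 1 lay just below Stat3β TG 3 (389440). Singly, 6 of the 12 markers had every Stat3β TG library above every WT library, beside 5.87% of all genes. Levels in sorted but bulk samples cannot tell fewer cells of a type from less RNA per cell. Several results depended on WT 1 or on another single library, and their values without it are given beside them.

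The p53 genes as a group lay at similar levels in Stat3β TG and WT blasts. With limma, 0 of the 29 tested genes passed an adjusted p of 0.05, where the background was 0.0% of all 12642 genes, and edgeR also called 0 of the 29. At an unadjusted p under 0.05, limma picked 2 of them, Trp53 (higher in Stat3β TG) and Gtse1 (lower), beside 6.1% of all genes (3.56% higher and 2.54% lower). At that unadjusted level edgeR picked 1 of the 29, beside 6.15% of all genes, and DESeq2 picked 2, beside 7.67%. The fitted difference was above 0 for 13 of the genes and below 0 for 16, and the median log2 fold change was -0.02 beside 0.01 for all tested genes. Without WT 1 that median was -0.20 for the p53 genes and 0.02 for all genes.

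The spread over libraries was also close to that of other genes. The highest library was 1.77 times the lowest for the median p53 gene and 1.78 times for the median of all tested genes. The ratio stayed under 2 for 17 of the 29 genes, or 58.6%, beside 58.7% of all genes. The median size of the log2 fold change, without regard to sign, was 0.23 for the p53 genes and 0.24 for all genes.

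**Figure D1:**
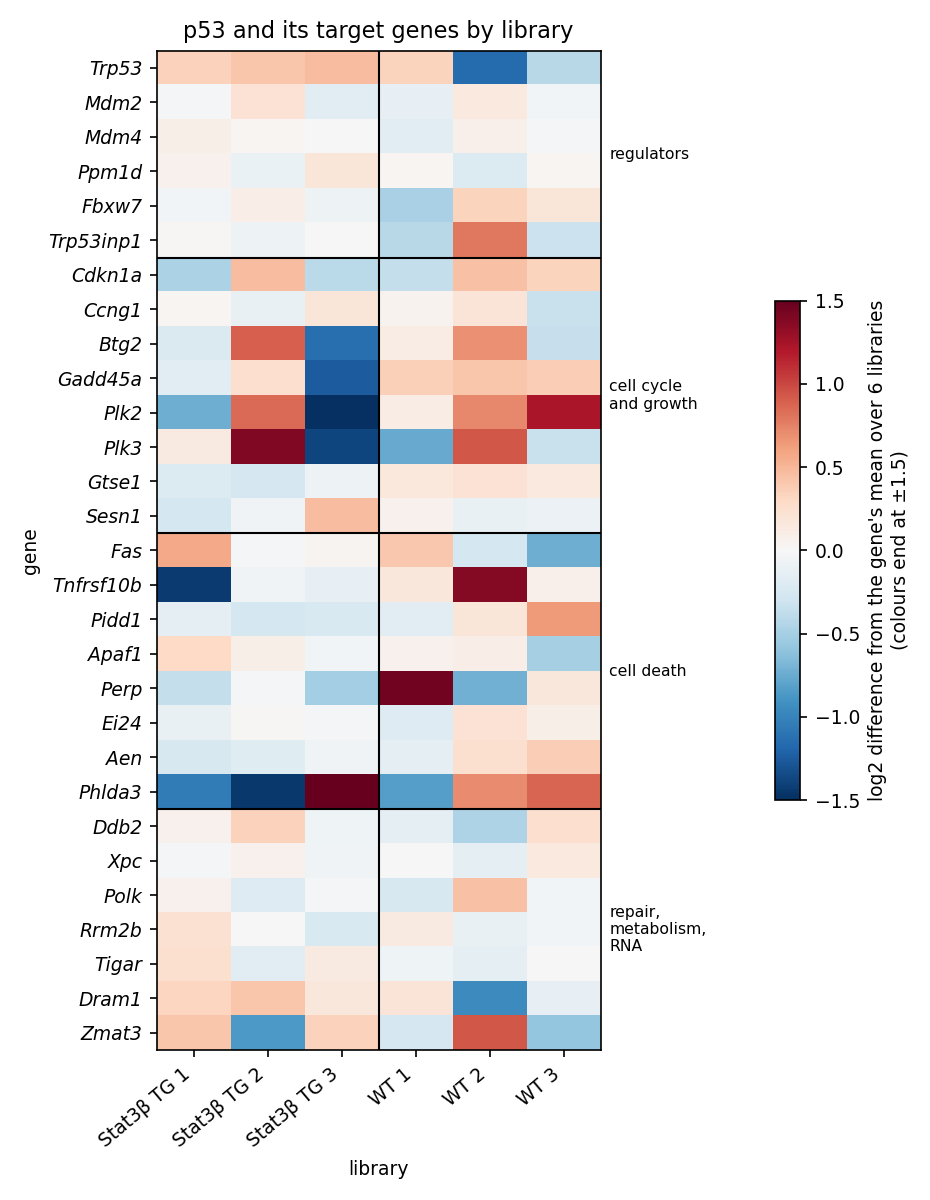
Each cell is the log2 normalized count of 1 gene in 1 library minus the gene's mean over the 6 libraries, with Stat3β TG libraries to the left of the line and WT libraries to the right; rows are grouped by role. Most rows are pale, Trp53 is low in WT 2 and WT 3, and Btg2, Gadd45a, Plk2 and Plk3 are low in Stat3β TG 3.

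Of the 6 regulators of p53, Trp53 itself was the one with non-overlapping groups. It had 4394, 4602 and 4773 normalized counts in the Stat3β TG libraries, against 4353, 1549 and 2593 in the WT libraries. The Stat3β TG values were close together, WT 1 lay just below them, and WT 2 and WT 3 were well below. Among all genes, 5.87% had every Stat3β TG library above every WT library. The means were 4590 ± 190 in Stat3β TG and 2832 ± 1418 in WT (SD, n = 3 each), a log2 fold change of 0.82 with a standard error of 0.33 and a 95% interval of 0.05 to 1.59. With limma the adjusted p was 0.668, so the difference did not pass.

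For Trp53 the WT library that was used decided the size of the difference. Against WT 1 alone the log2 fold change was 0.08, and without WT 2 it was 0.45. Without WT 1 it was 1.19, with an adjusted p of 0.0476 by limma, and of 0.0551 by edgeR. Without WT 1 limma called 2.74% of all genes, 1.8% as higher and 0.933% as lower in Stat3β TG, and Trp53 was the 1 p53 gene among them. The libraries low in Trp53, WT 2 and WT 3, were also those that lay apart on the first principal component, and WT 2 had the lowest neutrophil marker sum (109136). The part of either in the Trp53 value was not tested. A processed copy of Trp53, Trp53-ps, had no row under its symbol, so no reads were counted for it under that name. How reads shared with it were handled is not given in the sources used here.

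MDM2, a ubiquitin ligase that degrades p53, and its partner MDM4 (also called MDMX), which blocks the activity of p53, were level. Mdm2 had 3668, 4346 and 3332 normalized counts in Stat3β TG and 3436, 4149 and 3653 in WT. Its groups overlapped almost fully, with a log2 fold change of 0.01 and a 95% interval of -0.35 to 0.37, which covers a fold of 0.784 to 1.29. Mdm4 had 9607, 9183 and 9052 normalized counts in Stat3β TG and 8094, 9492 and 8844 in WT, with WT 2 inside the Stat3β TG range and the others below it. Its log2 fold change was 0.08, with an interval of -0.23 to 0.38.

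The other regulators were Ppm1d, the phosphatase WIP1 that switches off the damage response, Fbxw7, the substrate-binding part of a ubiquitin ligase, and Trp53inp1, a stress-induced nuclear protein. Ppm1d had 987 to 1202 normalized counts in Stat3β TG and 915 to 1080 in WT. Fbxw7 had 754 to 857 in Stat3β TG and 568 to 1004 in WT. For Trp53inp1 the Stat3β TG libraries had 1075 to 1144 and the WT libraries 853 to 1971, where the highest value was that of WT 2. The groups of all 3 overlapped, with log2 fold changes of 0.10 for Ppm1d, -0.02 for Fbxw7 and -0.04 for Trp53inp1. Without WT 1 those of Fbxw7 and Trp53inp1 were -0.26 each, and without WT 2 they were 0.15 for Fbxw7 and 0.34 for Trp53inp1.

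**Figure D2:**
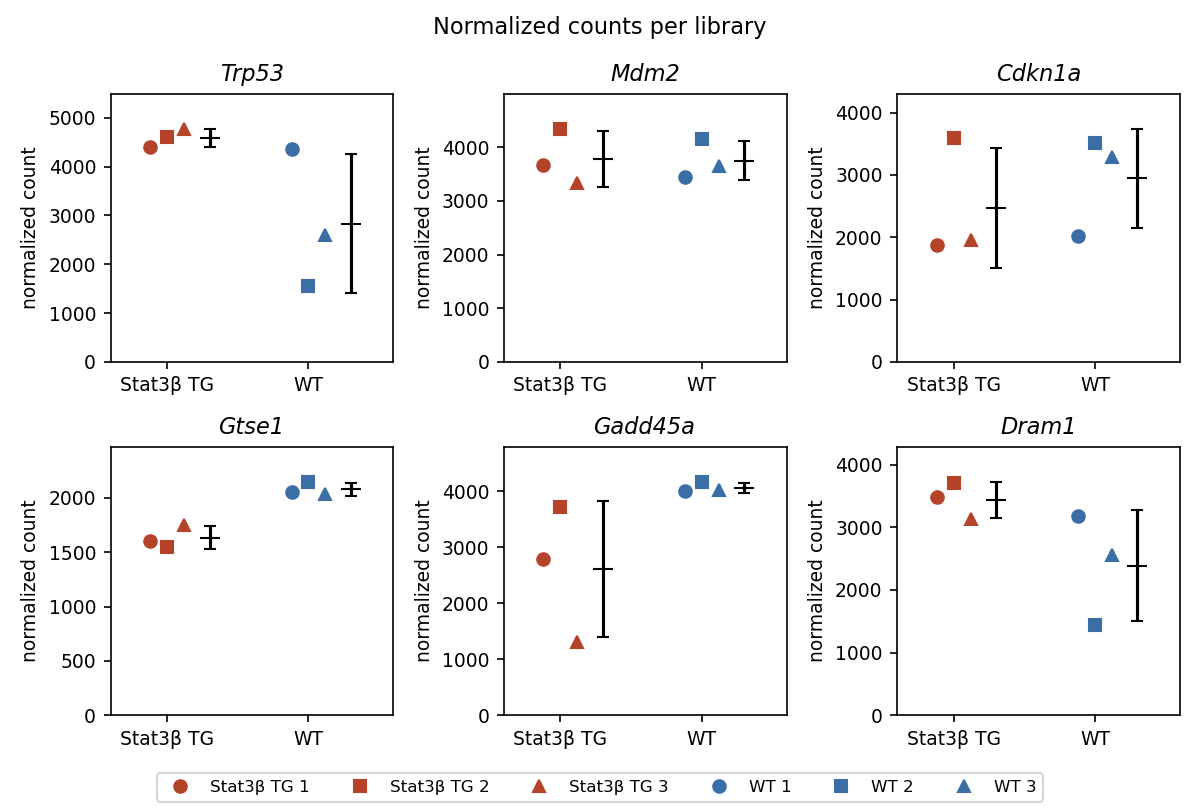
Normalized counts per library for 6 genes, with Stat3β TG left of WT; circles, squares and triangles are replicates 1, 2 and 3, and the bar beside each group is the mean with its SD (n = 3). Trp53 and Dram1 show 1 WT library near the Stat3β TG values and WT 2 lowest, Gtse1 and Gadd45a lie lower in Stat3β TG without overlap, and Mdm2 and Cdkn1a overlap.

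Among the 8 genes of cell cycle and growth control, 3 had a fitted difference above 0 and 5 below, around a median log2 fold change of -0.29 against 0.01 for all genes. Cdkn1a encodes p21, the inhibitor of cyclin-dependent kinases through which p53 halts the cell cycle, and is its best known target. It had 1873, 3587 and 1961 normalized counts in Stat3β TG and 2028, 3520 and 3284 in WT. High and low libraries occurred in both groups. The log2 fold change was -0.28, with a 95% interval of -0.99 to 0.43 and an adjusted p of 0.763 by limma. Against WT 1 alone it was 0.22 and without WT 1 it was -0.53.

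The Cdkn1a promoter is shown because it was the one window among the p53 genes in which a full p53 site was found. The bases are the 250 upstream of a Cdkn1a start site at chr17:29090729-29090978 on the plus strand (RefSeq, GRCm38.p6), with the site in capitals.
Cdkn1a: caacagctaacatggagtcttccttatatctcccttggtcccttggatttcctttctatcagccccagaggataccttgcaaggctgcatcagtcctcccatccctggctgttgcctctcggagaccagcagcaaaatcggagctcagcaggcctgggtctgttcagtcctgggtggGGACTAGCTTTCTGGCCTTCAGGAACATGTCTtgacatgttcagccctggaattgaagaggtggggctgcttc
The site is a pair of p53 half-sites (the 10-base consensus, which reads alike on both strands) separated by at most 13 bases. It runs from base -73 to base -42 relative to that start site. The search allowed no mismatch. The 10 bases directly after the site, in lower case, differ from the consensus only in their first letter. Which of these half-sites p53 binds was not tested. Full sites occurred in 21 of 32851 upstream windows of all genes, or 0.0639%.

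Single half-sites were commoner. Of the 30 p53 genes, 23 had at least 1 window in the RefSeq promoter table, 31 windows in all, and 10 of these windows (32.3%) held a half-site, beside 7.13% of all windows. Those of Trp53, Mdm2, Gadd45a, Ccng1 and Ppm1d are shown as examples from 3 regulators and 2 cell cycle genes, with the half-site in capitals. They lie at chr11:69580269-69580308 (plus strand), chr10:117710920-117710959 (minus), chr6:67037423-67037462 (minus), chr11:40755447-40755486 (minus) and chr11:85311107-85311146 (plus) in GRCm38.p6.
Trp53: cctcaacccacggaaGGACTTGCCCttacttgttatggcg
Mdm2: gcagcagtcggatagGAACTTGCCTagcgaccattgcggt
Gadd45a: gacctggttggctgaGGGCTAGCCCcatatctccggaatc
Ccng1: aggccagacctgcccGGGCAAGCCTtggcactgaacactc
Ppm1d: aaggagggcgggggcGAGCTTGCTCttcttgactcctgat
A match describes the letters of a window and is not evidence of binding. The p53 elements known for Mdm2 and Gadd45a lie within introns, outside these windows.

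Gtse1 encodes a protein of the G2 and S phases that binds p53 and moves it out of the nucleus. It had 1602, 1545 and 1750 normalized counts in Stat3β TG, against 2057, 2148 and 2038 in WT. Each Stat3β TG library was below each WT library, and both groups were tight, at 1632 ± 106 in Stat3β TG and 2081 ± 59.1 in WT (SD, n = 3 each). The log2 fold change was -0.35 with a standard error of 0.14, and with limma the unadjusted p was 0.0318 and the adjusted p 0.668. With single libraries left out it stayed between -0.40 and -0.31, and it was -0.34 against WT 1 alone.

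Gtse1 is transcribed together with other genes of mitosis, whose promoters often carry CCAAT boxes. Its upstream window is shown for that reason, at chr15:85859457-85859706 on the plus strand (RefSeq, GRCm38.p6), with CCAAT or its complement ATTGG in capitals.
Gtse1: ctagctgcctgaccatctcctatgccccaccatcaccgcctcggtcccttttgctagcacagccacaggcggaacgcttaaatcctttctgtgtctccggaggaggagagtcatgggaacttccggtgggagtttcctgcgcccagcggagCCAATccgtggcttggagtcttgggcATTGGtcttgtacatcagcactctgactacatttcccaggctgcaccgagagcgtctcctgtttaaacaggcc
CCAAT on either strand occurred in 14 of the 31 windows of the p53 genes (45.2%) and in 33.8% of all windows.

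Gadd45a, a small stress protein that binds PCNA and cyclin-dependent kinase 1, was the second gene of this role with non-overlapping groups. It had 2794, 3716 and 1312 normalized counts in Stat3β TG, against 4000, 4165 and 4012 in WT. All Stat3β TG libraries were below all WT libraries, a direction seen in 4.92% of all genes. The WT values differed by no more than 1.04 times and the Stat3β TG values by 2.83 times, with Stat3β TG 3 the lowest. The log2 fold change was -0.76, with a 95% interval of -1.56 to 0.03, an unadjusted p of 0.0583 and an adjusted p of 0.668 by limma. With single libraries left out it lay between -1.08 and -0.33. On the opposite strand the noncoding gene E230016M11Rik overlaps 19.1% of the exonic bases of Gadd45a, at 56.7 to 99.7 normalized counts in Stat3β TG and 120 to 158 in WT. How strand was handled in counting is not given in the sources used here, so reads of this pair cannot be told apart.

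Btg2, an antiproliferative regulator of mRNA decay, was the most abundant of the p53 genes per length, at a mean over the 6 libraries of 4803 normalized counts per kilobase of exon. It had 10208, 22175 and 5405 normalized counts in Stat3β TG and 12821, 19092 and 9352 in WT. The highest and the lowest library were both Stat3β TG, and the log2 fold change was -0.30 with an interval of -1.44 to 0.84. The polo-like kinases, which p53 and growth stimuli both induce, were spread more widely still. Plk2 had 281, 838 and 103 normalized counts in Stat3β TG and 504, 769 and 1086 in WT, a log2 fold change of -1.37 with an interval of -2.97 to 0.24. Plk3 had 2093, 4993 and 729 in Stat3β TG and 1126, 3636 and 1513 in WT, a log2 fold change of 0.10 with an interval of -1.51 to 1.71. In both kinases the groups overlapped, with Stat3β TG 2 high and Stat3β TG 3 lowest. Both of these libraries moved the log2 fold changes. Without Stat3β TG 2 they were -0.83 for Btg2, -2.13 for Plk2 and -0.57 for Plk3. Without Stat3β TG 3 they were 0.19 for Btg2, -0.62 for Plk2 and 0.82 for Plk3, so that the sign for Btg2 and Plk3 rests on single libraries. The sign for Plk3 also turned without WT 1 (-0.25) and without WT 3 (-0.04), and Btg2 was at -0.03 without WT 2 and -0.55 without WT 3.

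The remaining genes of this role were Ccng1, an atypical cyclin, and Sesn1, a sestrin that restrains the growth kinase mTORC1. Ccng1 had 2527 to 3093 normalized counts in Stat3β TG and 2177 to 3119 in WT. Sesn1 had 1185 to 1955 in Stat3β TG and 1310 to 1481 in WT, with Stat3β TG 3 the highest library.

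The order of the Stat3β TG libraries was shared by several of the p53 genes. In 10 of the 29 genes (34.5%) Stat3β TG 2 was above Stat3β TG 1 and this above Stat3β TG 3, beside 13.7% of all tested genes. These were Mdm2, Fbxw7, Btg2, Gadd45a, Plk2, Plk3, Perp, Ddb2, Xpc and Dram1. Some differed little between these libraries, such as Xpc at 8902, 8419 and 8198 in Stat3β TG 2, 1 and 3. The order was not planned but picked after values of these genes had been seen, so the shares only describe them. The immediate-early genes, which are transcribed within minutes of a stimulus or of cell handling, were looked at after these values had been seen. Summed over 8 of them (Fos, Fosb, Jun, Junb, Egr1, Ier2, Dusp1 and Zfp36), the level was 241322, 425159 and 126155 normalized counts in Stat3β TG 1, 2 and 3, against 222744, 344584 and 223189 in WT 1, 2 and 3. Their sum thus had the same order in the Stat3β TG libraries and was highest in WT 2 within WT, as were Btg2 and Plk3. Plk2 did not follow within WT, at 504, 769 and 1086 in WT 1, 2 and 3. Gadd45a was nearly level there, at 4000, 4165 and 4012. The part of these genes' signal in the values of Btg2, Gadd45a, Plk2 and Plk3 was not tested.

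**Figure D3:**
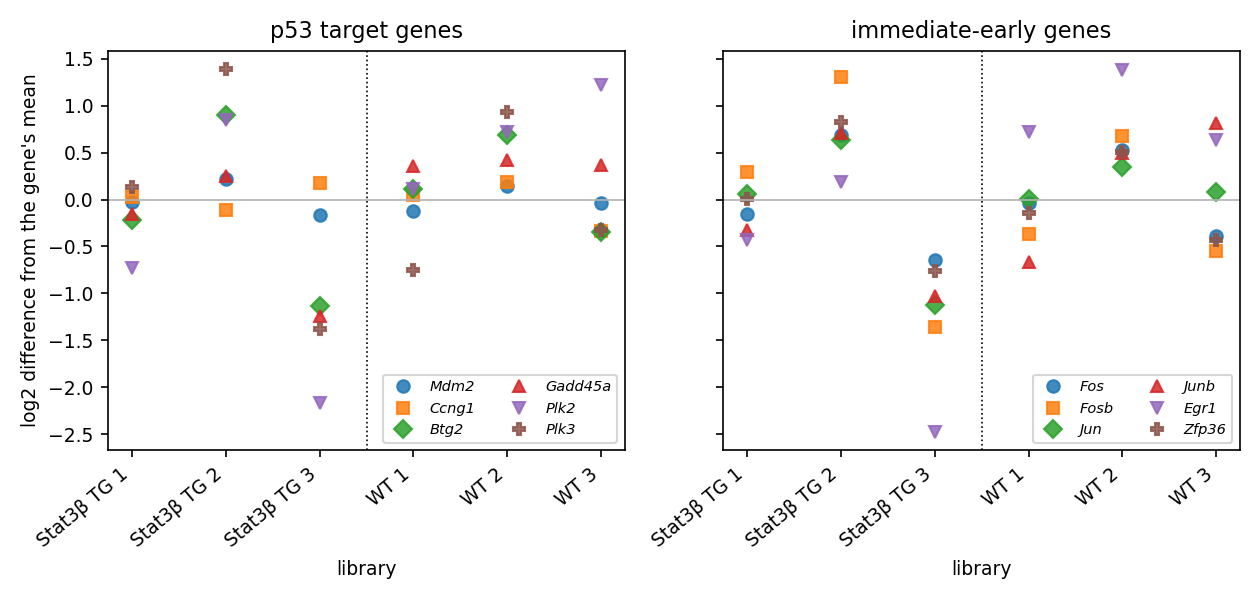
Log2 normalized count minus the gene's mean over 6 libraries, for 6 p53 target genes (left panel) and 6 immediate-early genes (right panel), with Stat3β TG libraries left of the dotted line. Btg2, Plk2 and Plk3 are high in Stat3β TG 2 and low in Stat3β TG 3, as are Fos, Fosb, Jun, Junb and Zfp36, while Mdm2 and Ccng1 stay near 0. Egr1 is plotted but is not among the genes named for this pattern, and Ier2 and Dusp1 are not plotted.

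Of the 9 cell death genes, 8 were tested, 2 with a fitted difference above 0 and 6 below, at a median log2 fold change of -0.37 against 0.01 for all genes. None passed the adjusted threshold of limma or an unadjusted p under 0.05. Of the death receptors, Fas had 356, 236 and 247 normalized counts in Stat3β TG and 318, 200 and 144 in WT, an overlap of the groups at a log2 fold change of 0.39 with an interval of -0.44 to 1.22. For Fas it was 0.69 without WT 1, 0.21 without Stat3β TG 1, 0.12 without WT 3 and -0.21 against WT 1 alone. Tnfrsf10b, the receptor for the death ligand TRAIL, had 10.7, 29.6 and 28.1 in Stat3β TG, against 34.8, 81.2 and 32.4 in WT. All Stat3β TG libraries of Tnfrsf10b were below all WT libraries, although Stat3β TG 2 and WT 3 nearly met. Its log2 fold change was -1.08 with an interval of -2.45 to 0.29 (-0.63 without Stat3β TG 1 and -0.66 without WT 2), and its mean level per kilobase, 6.63 normalized counts, was the lowest of the tested p53 genes. Eda2r was at 0, 0 and 0.56 normalized counts in Stat3β TG and 0, 0 and 4.22 in WT, at or under the 1.69 to 4.22 that a count of 3 reads is worth in these libraries, a limit that covers counting error only.

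The parts of the caspase-activating machinery were well expressed. Apaf1, the scaffold of the apoptosome, had 7581, 6591 and 5991 normalized counts in Stat3β TG and 6446, 6613 and 4373 in WT, with WT 3 alone below the Stat3β TG range. Its log2 fold change was 0.23 with an interval of -0.23 to 0.68, and without WT 3 it was 0.03. Pidd1, the scaffold that activates caspase-2, had 1622, 1496 and 1539 in Stat3β TG and 1601, 2036 and 2809 in WT. For Pidd1, WT 2 and WT 3 were above every Stat3β TG library and WT 1 was inside their range. The log2 fold change was -0.43 with all libraries, -0.62 without WT 1 (adjusted p 0.0867 by limma), -0.22 without WT 3 and -0.05 against WT 1 alone.

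Ei24, a membrane protein of the endoplasmic reticulum, had 2417, 2647 and 2580 normalized counts in Stat3β TG and 2300, 3051 and 2788 in WT. Aen, a nuclease that acts in apoptosis, had 892 to 1018 in Stat3β TG and 956 to 1356 in WT, a log2 fold change of -0.31 with an interval of -0.74 to 0.11, of -0.46 without WT 1 and of -0.02 against WT 1 alone. In both, WT 2 and WT 3 lay above the other 4 libraries, a pattern found in 5 of the 29 genes (17.2%) and in 20.5% of all genes. The opposite pattern, WT 2 and WT 3 below the other 4 libraries, was that of Trp53, Fas and Dram1, or 10.3% of the p53 genes beside 21.9% of all genes. Perp, a desmosome protein of epithelia that also acts in apoptosis, and Phlda3, an inhibitor of the kinase AKT, were low. Perp had 48.9 to 69.0 normalized counts in Stat3β TG and 42.0 to 193 in WT, with WT 1 the highest, and its log2 fold change was -0.60, or -0.02 without WT 1. Phlda3 had 7.39 to 75.8 in Stat3β TG and 11.97 to 40.8 in WT, and its fitted difference, -0.51 on the log2 scale, had an interval of -2.63 to 1.62. The direction for Phlda3 turned with the tool, at 0.09 by edgeR and 0.07 by DESeq2, and the mean was 31.1 in Stat3β TG and 29.8 in WT.

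The 7 genes of repair, metabolism and RNA had a median log2 fold change of 0.00, with 4 above 0 and 3 below, and none was picked at an unadjusted p under 0.05 by limma. Xpc, which recognises DNA damage in nucleotide excision repair, had 8419, 8902 and 8198 normalized counts in Stat3β TG and 8551, 7701 and 9465 in WT. Its log2 fold change of -0.01 had an interval of -0.33 to 0.31, one of the narrowest of the list. Ddb2, which recognises ultraviolet damage, had 349 to 464 in Stat3β TG and 263 to 435 in WT. Its exons share 23.8% of their bases with Acp2 on the opposite strand, so reads of this pair cannot be told apart either. Acp2 had 933 to 1609 normalized counts in Stat3β TG and 1099 to 1467 in WT, above Ddb2 in every library. For Gadd45a the overlapping gene was far below it, so the value of Ddb2 is the less certain. Polk, a polymerase that copies past damaged bases, had 543 to 650 in Stat3β TG and 525 to 843 in WT. Rrm2b, the p53-inducible subunit of ribonucleotide reductase, had 472 to 651 in Stat3β TG and 514 to 611 in WT. All 4 repair genes overlapped between the groups.

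Dram1, a lysosomal membrane protein that promotes autophagy, had the largest fitted difference above 0 after Trp53. It had 3480, 3707 and 3134 normalized counts in Stat3β TG and 3177, 1434 and 2557 in WT. WT 1 was inside the Stat3β TG range, and WT 2 and WT 3 were below it. The log2 fold change was 0.60 with a standard error of 0.28 and an interval of -0.05 to 1.24, and the adjusted p was 0.668 by limma. Without WT 1 it was 0.84 with an adjusted p of 0.0940 by limma, without WT 2 it was 0.27, and against WT 1 alone it was 0.11. Tigar, a phosphatase that lowers glycolysis, had 1080 to 1418 in Stat3β TG and 1088 to 1199 in WT. Zmat3, an RNA-binding protein, had 81.3 to 198 in Stat3β TG and 98.5 to 284 in WT.

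**Figure D4:**
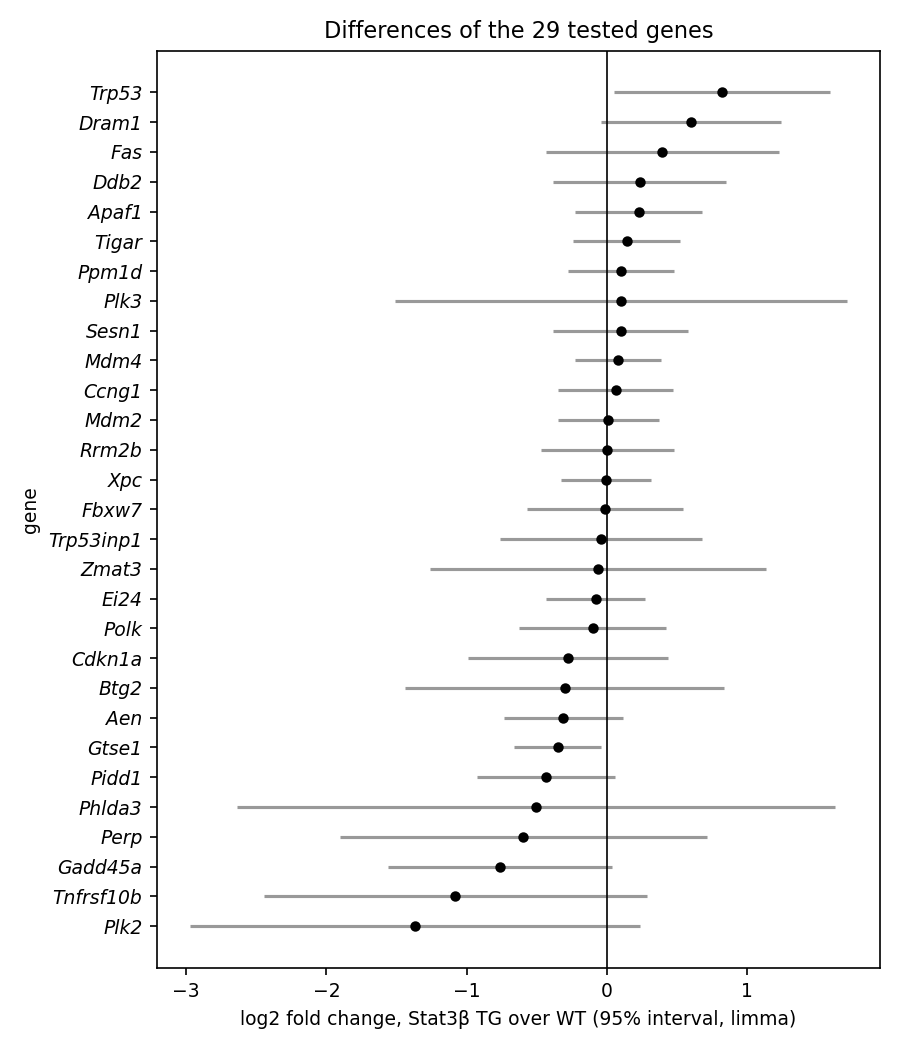
Fitted differences on the log2 scale (Stat3β TG over WT) for the 29 tested genes, ordered by value, with the 95% interval of limma from 3 libraries a group. Only the intervals of Trp53 (0.05 to 1.59) and Gtse1 (-0.66 to -0.04) leave out 0, and neither gene passed the adjusted threshold.

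Other p53 targets from a separate list were measured beside the 30 genes. Of 33 such genes 32 were tested, 13 with a difference above 0 and 19 below, at a median log2 fold change of -0.04, and limma called 0 at the adjusted threshold. The smallest p was that of Lif, a cytokine of the interleukin-6 family and a p53 target in the uterus. Lif had 163, 259 and 90.5 normalized counts in Stat3β TG, against 1088, 1957 and 508 in WT. Its groups did not overlap and the log2 fold change was -2.71 with a standard error of 0.55, at an adjusted p of 0.668 by limma and 1.35e-04 by DESeq2. DESeq2 called 0.134% of all genes. Ephx1, an epoxide hydrolase, had 31.5, 44.3 and 29.2 in Stat3β TG, against 89.2, 81.2 and 128 in WT. Bcl6, a transcriptional repressor, had 1182, 680 and 967 in Stat3β TG, against 606, 689 and 566 in WT, with Stat3β TG 2 inside the WT range. Their log2 fold changes were -1.48 for Ephx1 and 0.57 for Bcl6, each with an adjusted p of 0.668 by limma. The next smallest p was that of Tnfaip8, an apoptosis regulator, at a log2 fold change of 0.33.

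Of 27 kinases and other regulators upstream of p53, 25 were tested. The difference was above 0 in 14 and below in 11, the median log2 fold change was 0.08, and 0 were picked by limma at an unadjusted p under 0.05. Chek2, the checkpoint kinase that phosphorylates p53, had 1354, 1313 and 1407 normalized counts in Stat3β TG and 1404, 694 and 872 in WT. As with Trp53, WT 1 was close to the Stat3β TG values and WT 2 and WT 3 were below, with a log2 fold change of 0.52 and an interval of -0.07 to 1.11. Without WT 1 that of Chek2 was 0.80 (adjusted p 0.0545 by limma), without WT 2 it was 0.29, and against WT 1 alone it was -0.05. Ppp1r13b, which encodes the p53 cofactor ASPP1, had a log2 fold change of 0.56, the ubiquitin ligase Huwe1 one of -0.36 and the damage kinase Atm one of 0.22. The sister genes of Trp53, Trp63 and Trp73, were at 0 to 1.23 and at 0 in Stat3β TG, against 0 to 1.09 and 1.09 to 8.12 in WT. A count of 3 reads is worth 1.69 to 4.22 normalized counts in these libraries, so these values are a few reads at most.

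A group of 18 cell cycle genes that p53 represses through p21 and the DREAM complex was tested in full. The difference was above 0 in 2 and below in 16, around a median log2 fold change of -0.23 beside 0.01 for all genes. At the adjusted threshold limma called 0, and 5 were lower at an unadjusted p under 0.05, beside 2.54% of all genes. In 7 of them every Stat3β TG library was below every WT library, beside 4.92% of all genes. The 4 with the smallest p were Cdc25c, the phosphatase that activates CDK1, at -0.71, the anaphase activator Cdc20 at -0.49, the mitotic kinase Cdk1 at -0.43 and cyclin B1 (Ccnb1) at -0.55 on the log2 scale. Cdk1 had 4193, 4856 and 5112 normalized counts in Stat3β TG, against 6000, 6463 and 6608 in WT. The direction was the same as that of Gtse1, itself a gene of the G2 phase. Without WT 1 the median was -0.15 and 6 of the 18 were above 0.

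Stat3 itself, the transgene's parent gene, had 11129, 9846 and 8034 normalized counts in Stat3β TG and 8058, 16112 and 10879 in WT, and its log2 fold change of -0.23 was not past the threshold of limma (adjusted p 0.771). It was -0.47 without WT 1, 0.03 without WT 2 and -0.10 without Stat3β TG 3. Gene-level counts do not separate the Stat3β form, so this does not check the labels. Among markers of other cells, the T cell gene Cd3e and the megakaryocyte gene Gp6 were at 0 in all libraries. The 7 T cell markers in the table (of 8 listed) summed to 87.4 to 119 normalized counts in Stat3β TG and 39.3 to 201 in WT, and the 10 erythroid markers to 78.8 to 187 in Stat3β TG and 95.7 to 314 in WT. The 9 eosinophil and basophil markers summed to 7115 to 12722 in Stat3β TG and 10846 to 44287 in WT. Fitted differences were above 0 for all 6 NK cell markers, with sums of 266 to 537 in Stat3β TG and 14.1 to 430 in WT, and for the 3 tested of 7 megakaryocyte markers, with sums over the 7 of 1048 to 2132 in Stat3β TG and 717 to 2489 in WT. Monocyte and macrophage markers summed to 40166 to 52315 in Stat3β TG and 42631 to 46966 in WT, B lineage markers to 1219 to 2106 in Stat3β TG and 1243 to 1816 in WT, and endothelial and stromal markers to 2576 to 6538 in Stat3β TG and 4590 to 7618 in WT. The part of these cells in the p53 genes' values was not tested.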

How the data were processed

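RNA sequencing of sorted blasts was analysed for 3 Stat3β TG and 3 WT libraries. Groups and replicate numbers come from the titles of the samples. The tools STAR, FastQC and DESeq2 and the build GRCm38 (mm10) are named in the submitters' processing notes, while versions, the read counter, its use of strand and the annotation were not given in the sources used here. What the authors deposited were gene-level normalized counts (a non-negative signal) under Entrez IDs, of which 24376 had a symbol in RefSeq (GRCm38.p6). Within a library every value was a whole multiple of 1 smallest step (100% of 146724 values within 0.001), so whole reads were recovered.

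Values were analysed as log2(normalized count + 1) with limma 3.58.1 in R 4.3.3 (trend and robust moderation, two-sided, group only), over genes with at least 10 in at least 3 libraries, with Benjamini-Hochberg adjustment over all 12642. The pseudocount understates the change of low genes. The tests edgeR 4.0.16 (quasi-likelihood) and DESeq2 1.42.0 were run on the recovered reads as alternatives. The scripts were tested on simulated data. No 2 libraries agreed within sampling noise (chi-square per gene at least 66.4).

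The p53 genes and the other lists were chosen with earlier results of these data known. Every p53 gene is accounted for. Values in every library are given for those with an unadjusted p under 0.05 or non-overlapping groups, for Trp53, Cdkn1a and Mdm2, and for the 2 most abundant in each role, and up to 4 genes with the smallest p are named from other lists. Values in every library of Plk2, Plk3, Fas and Pidd1, the order of the Stat3β TG libraries and the immediate-early list were added after their values were seen. The RefSeq promoter windows cover 250 bases upstream of each start. Windows of 7 p53 genes (Perp, Zmat3, Ddb2, Xpc, Rrm2b, Tnfrsf10b and Trp53inp1) were not used here.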

Additional observations from a re-analysis of the deposited data

How the results depend on the processing

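The count of 0 called genes held with edgeR, quantile and upper-quartile scaling, pseudocounts of 0.5 and 5, no filter, a minimum of 50 and plain limma. DESeq2 called 17 genes, 0 of them p53 genes. Leaving out single libraries gave 0 to 346 called genes with limma and, as an alternative chosen after seeing the data, 0 to 115 with edgeR. The highest count in each came without WT 1, and without WT 2 both called 5. Of the p53 genes 0 to 1 were called by limma when single libraries were left out, the 1 being Trp53 without WT 1. Their count at an unadjusted p under 0.05, 2 as reported, was 1 with edgeR, 1 with plain limma and 0 to 5 without single libraries by either tool. Their median log2 fold change, -0.02 as reported, ran from -0.20 (without WT 1) to 0.059 (without WT 2). With all libraries 4 of the 29 p53 genes did not overlap, 1 above WT and 3 below, beside 5.87% and 4.92% of all genes. When single libraries were left out, 5 to 10 of them did not overlap, as fewer values per group overlap less. With WT 1 alone, 9 genes were called, 1 p53 gene had an unadjusted p under 0.05 and 11 did not overlap. With WT 2 alone, 740 genes were called, with 2 p53 genes among them (Trp53 at 1.57 and Dram1 at 1.26), 4 had an unadjusted p under 0.05, 18 did not overlap, and the median was -0.26. These single-library fits assume that the lone WT library varies like Stat3β TG, and the cause of the changes was not tested. WT 1 lay within the Stat3β TG range in 18 of the 29 p53 genes (62.1%), beside 55.7% of all tested genes. For WT 2 alone the share of all genes was not counted, so the p53 genes that did not overlap there have no comparison. Over 18 alternatives 12 of the 29 p53 genes never changed direction, among them Trp53, Gtse1, Gadd45a and Dram1. Changes of the filter, plain limma and the replicate block leave the fitted difference of a gene as it was. Those alternatives could not turn a direction, so the count overstates stability. The size was less stable, at 0.08 to 1.57 for Trp53 and 0.11 to 1.26 for Dram1.

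Replicate numbers are shared by the groups, and same-numbered libraries correlated at 0.14, 0.10 and -0.11 in their deviations. Differently numbered ones correlated at -0.20 to 0.14. With 3 libraries a group these values cannot tell whether same-numbered samples share more than a number. A fit with the replicate block called 0 genes and 0 p53 genes, with 2 p53 genes at an unadjusted p under 0.05 and a median of -0.02.

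With 3 libraries a group the intervals are wide. That of Mdm2, one of the narrower ones, spans folds of 0.784 to 1.29, and Plk2 at a fold of 0.387 did not pass.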

Other observations

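The BCL2 family targets of p53, named here after their values were seen, did not move together. Pmaip1, which encodes the BH3-only protein NOXA, had 7838, 19757 and 5682 normalized counts in Stat3β TG and 10113, 22206 and 11074 in WT, with replicate 2 the highest in both groups. Bax, the pore-forming death effector, had 1880, 2174 and 3051 in Stat3β TG and 2109, 2170 and 2195 in WT. Bbc3, which encodes PUMA, had 454, 672 and 591 in Stat3β TG and 636, 479 and 299.7 in WT. All 3 overlapped between the groups, and their adjusted p by limma was 0.731 to 0.856.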
